A study of Mus musculus with 20 samples.

Results

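Small nucleolar RNA (snoRNA) genes were followed across RNA-seq libraries of mouse plantaris muscle. The genes taken were those in both count tables whose symbol begins with Snord or Snora and that had at least 10 counts summed over the 20 libraries. They were 26 of the 93 genes with such symbols, and 26 of the 54532 genes in the tables, of which 24625 had at least 10 counts. Of the others, 56 had 0 counts in all 20 libraries and 11 had between 1 and 9. Just inside the limit were Snord23 with 11 counts and Snora62 with 13, and just outside it were Snord70 with 8, Snord49b with 7 and Snora2b with 7. Predicted genes named in capitals (SNORD or SNORA) were not taken, and 98 of these 1043 genes had at least 10 counts. The members were thus chosen by symbol and by their summed counts in these libraries, and the loss of Snord91a in one group was known beforehand, so that the loss is described here by its counts. Where a fit over all genes called Snord91a on the MOV mimic libraries, that call follows from the choice of the gene and supports nothing.

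The muscles came from male C57BL/6J mice aged 5 months and were collected 10 days after surgery. In MOV (mechanical overload), part of the muscles that work with the plantaris was removed on both legs, and sham mice went through the operation without that step. All mice received lentivirus at surgery, the control virus in the left plantaris and a virus for a miR-1a-3p mimic in the right, each with a green fluorescent reporter and a CMV promoter, which is not specific to muscle. No group was free of virus. Surgery and virus gave 4 groups of 5 libraries, called sham control and sham mimic, MOV control and MOV mimic, and the virus coincided with the leg and with the table in which the counts were deposited.

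snoRNAs are short RNAs of the nucleolus that pair with ribosomal RNA. Those of the box C/D class (Snord) guide the addition of methyl groups to ribose by fibrillarin, and those of the box H/ACA class (Snora) guide the conversion of uridine to pseudouridine by dyskerin, although some members have other or unknown targets. Most are carried in introns of host genes, many of which encode ribosomal proteins or translation factors, and are released from the excised intron. The study asked whether miR-1, a muscle microRNA, has to fall for overloaded muscle to grow, and a growing muscle makes more ribosomes. A read on a snoRNA gene in these counts may come from the mature snoRNA or from an unspliced host transcript, and the counts do not tell these apart.

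Library totals ran from 12036360 to 23056525 counts, and the lowest was that of MOV mimic replicate 4. The 26 snoRNA genes held 2458 counts in all, of which sham control held 539 (0.000631% of its counts), sham mimic 488 (0.000514%), MOV control 847 (0.000985%) and MOV mimic 584 (0.00074%). All 6 markers of skeletal muscle had counts in all libraries, and their summed level spanned 91007 to 154189 CPM (counts relative to the library total, after TMM normalization) in sham control and 92453 to 151693 in sham mimic, against 65941 to 112361 and 58098 to 102702 in the control and mimic libraries of MOV. Of 8 leukocyte markers 7 were found, none was at 0 in a whole group, and their summed level had overlapping ranges in MOV control (186 to 655 CPM) and MOV mimic (382 to 741). All 4 fibroblast and all 4 endothelial markers were found. Endothelial sums were 227 to 278 CPM for sham control and 255 to 345 for sham mimic, and 122 to 242 and 180 to 199 for the control and mimic libraries of MOV. The part of cell types in the snoRNA counts was not tested, and in whole muscle fewer cells of a type and less RNA per cell cannot be told apart.

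Snord91a is a box C/D snoRNA gene (ENSMUSG00000077493) at chr11:74905446-74905505 of GRCm38, in an intron of Tsr1, which encodes a factor for the maturation of the small ribosomal subunit. It had 12, 16, 10, 4 and 10 counts in sham control replicates 1 to 5 and 8, 4, 25, 16 and 6 counts in sham mimic. It had 15, 17, 19, 21 and 30 counts in MOV control. In MOV mimic it had 0 counts in all 5 libraries. The MOV mimic libraries therefore lay below all 15 others, of which the lowest had 4 counts.

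In TMM CPM, Snord91a was 0.669 ± 0.304 (SD, n = 5) in sham control, 0.637 ± 0.398 in sham mimic and 1.19 ± 0.606 in MOV control. A count of 0 allowed up to 3 counts, which is 0.14 to 0.213 CPM in the MOV mimic libraries. The lowest of the other 15 libraries had 0.234 CPM, above each of these limits. With this floor in each library, the level in MOV mimic was at least 6.70-fold lower than the mean of MOV control and at least 3.59-fold lower than that of sham mimic. With 3 counts allowed over the 5 libraries together, these bounds were 34.4-fold and 18.4-fold. The limits cover counting error only.

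In the other comparisons Snord91a did not pass the test. Between sham mimic and sham control its log2FC was -0.06 (SE 0.66, adjusted p = 1.00, edgeR), with overlapping libraries. MOV control was above sham control by a log2FC of 0.82 (SE 0.65, adjusted p = 0.627, edgeR), and these groups overlapped too.

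**Figure D1:**
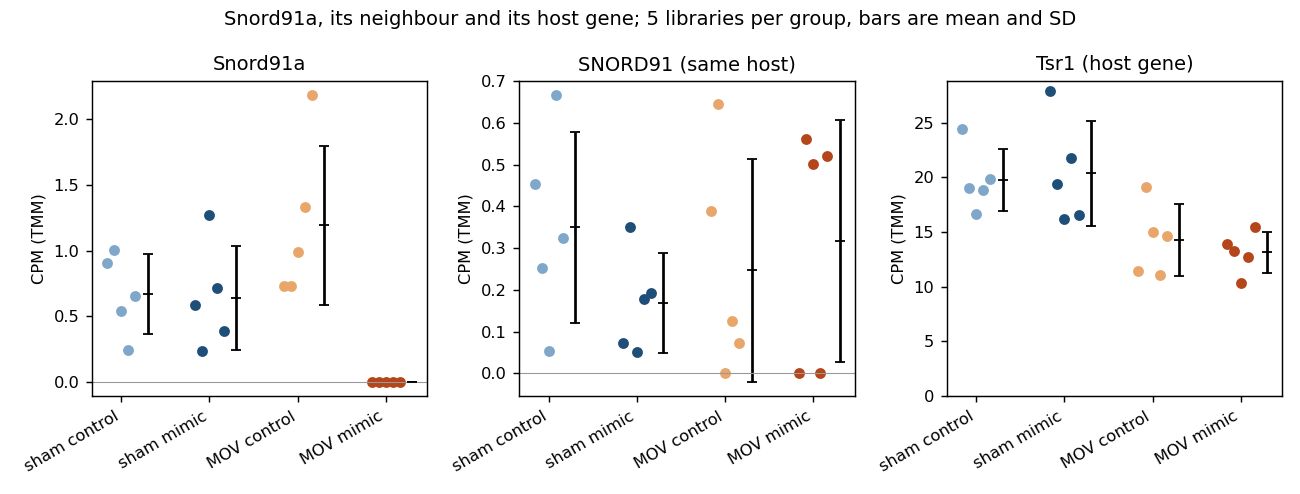
TMM CPM of Snord91a, of SNORD91 in the same host gene and of the host gene Tsr1, with a point for each of 5 libraries per group and a bar for the mean and SD. Snord91a sits at 0 in the 5 MOV mimic libraries, SNORD91 reaches 0.561 CPM there, and Tsr1 lies between 10.4 and 15.5 CPM in them.

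The host gene was counted in every library in which Snord91a was at 0. Tsr1 had 275, 283, 165, 179 and 238 counts in MOV mimic replicates 1 to 5 and 234, 446, 290, 175 and 201 counts in MOV control. The ranges of these groups overlapped, and the means were 13.1 ± 1.86 CPM and 14.3 ± 3.28 CPM (SD, n = 5). The log2FC of Tsr1 between them was -0.12 (SE 0.18, adjusted p = 0.902, edgeR). Sham control had 19.7 ± 2.86 CPM of Tsr1 and sham mimic 20.4 ± 4.80 CPM. Tsr1 had a log2FC of -0.47 for MOV control against sham control (adjusted p = 0.270) and of -0.63 for MOV mimic against sham mimic (adjusted p = 0.202, edgeR), and neither passed the test. In CPM its MOV mimic libraries lay below all sham mimic libraries, and 1.99% of all genes tested had such groups without overlap. For each 100 counts of Tsr1 sham control had 3.35 counts of Snord91a, sham mimic 3.32, MOV control 7.58 and MOV mimic 0.

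Tsr1 carries another snoRNA gene, the predicted SNORD91 (ENSMUSG00000077637), with 96 counts. In MOV mimic it had 0, 12, 8, 0 and 8 counts, and in MOV control it had 8, 15, 0, 2 and 1. Thus 3 of the 5 MOV mimic libraries without a count on Snord91a had reads on SNORD91, and the groups overlapped. Its log2FC was 0.33 (SE 1.10, adjusted p = 0.969, edgeR). In sham control it had 6, 4, 1, 11 and 5 counts, and in sham mimic 1, 6, 1, 4 and 3. Srr, the serine racemase gene, also spans Snord91a in RefSeq and was not used as its host.

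Many transcripts for ribosomal proteins and translation factors begin with a C followed by a run of pyrimidines, a feature known to tie their translation to growth signals, and for this reason the annotated starts of host genes were read. Each window below holds 30 bases before and 30 after a RefSeq start on GRCm38.p6, on the strand of the gene, with capitals for the longest run of C and T that begins with C and starts within 20 bases of that start. Tsr1 is shown as the host of Snord91a, Rpl13a and Ipo7 as the host genes with the longest such runs, and Rpl37 and Tpt1 as hosts of the 2 hosted members with most counts.
Tsr1, chr11:74898050-74898109: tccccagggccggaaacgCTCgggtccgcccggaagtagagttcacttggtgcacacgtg
Rpl13a, chr7:45128716-45128775: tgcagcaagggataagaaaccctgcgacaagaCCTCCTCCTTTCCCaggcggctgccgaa
Ipo7, chr7:110018285-110018344: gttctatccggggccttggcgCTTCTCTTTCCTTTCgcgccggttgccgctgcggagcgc
Rpl37, chr15:5116583-5116642: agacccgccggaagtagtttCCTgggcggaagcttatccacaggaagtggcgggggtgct
Tpt1, chr14:75845226-75845285: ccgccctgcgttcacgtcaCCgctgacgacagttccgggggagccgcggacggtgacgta
The run was 14 bases long in Rpl13a and 15 in Ipo7, and 3 in Tsr1. A run of at least 7 bases stood in 6 of the 18 host genes with a window (33.3%) and in 21.4% of 27025 genes of the same table. The starts are annotated and were not measured in these muscles, so that a short run says only that these letters are not in this window.

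The plot of raw counts in each library gives the setting for Snord91a among the snoRNA genes. By counts per 100 bp of gene over all 20 libraries, the 4 highest were Snord104, Snora31, Snord72 and Snord91a, and their order depended on the annotated length and on the libraries. With GENCODE lengths of the older build they had 417, 348, 330 and 229 counts per 100 bp, and with RefSeq spans on GRCm38.p6 they had 400.0, 404, 445 and 355, so that Snord72 then came first. Without the 5 MOV mimic libraries the RefSeq spans gave 319, 321, 223 and 355, so that Snord91a came first, and the GENCODE lengths gave 333, 277, 165 and 229. Snora17 followed with 176 over all 20 libraries by both lengths, and Snora62 came last with 8.72 and 10.0. By raw counts over all 20 libraries the members with most were Snora31 (453), Snord104 (292), Snord72 (267), Snora17 (232) and Snord91a (213). Over the 15 libraries outside MOV mimic they had 360, 233, 134, 157 and 213, and Snord91a exceeded Snord72 and Snora17 in each of these 3 groups. The other 21 genes had between 11 and 162 counts over the 20 libraries. Zeros were common, and in no group did more than 7 of the 26 genes have counts in all 5 libraries.

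**Figure D2:**
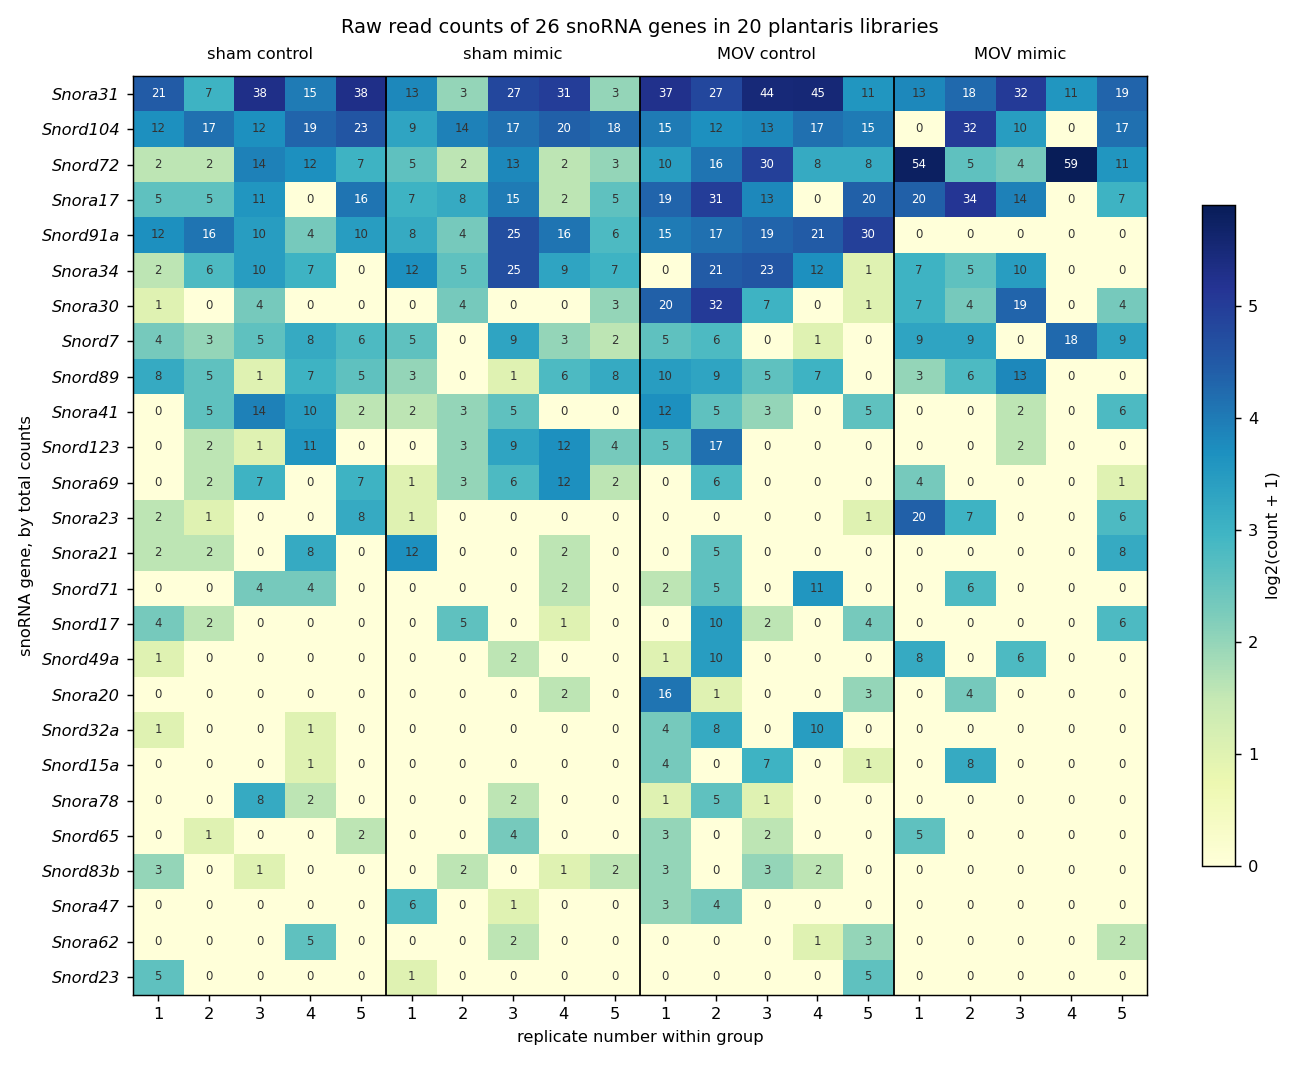
Raw read counts of the 26 snoRNA genes (rows, by total counts) in 20 libraries (columns, by group and replicate number), shaded by log2(count + 1). Snord91a has 15 to 30 counts in MOV control and 0 in the 5 MOV mimic libraries, and MOV mimic replicate 4 has 23 of the 26 genes at 0.

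In MOV mimic, 6 of the 26 genes were at 0 in all 5 libraries, namely Snord91a, Snord32a, Snord83b, Snora78, Snora47 and Snord23. In sham control 2 genes were at 0 throughout (Snora20 and Snora47), in sham mimic 2 (Snord15a and Snord32a) and in MOV control 0. Snord32a, Snord83b, Snora47 and Snord23, like Snora20, Snord15a and Snora62, reached the limit on summed counts only with their MOV control counts. These genes could thus not be at 0 throughout MOV control, and part of the contrast in zeros with MOV mimic follows from the choice of members. Snord91a and Snora78 reached the limit without MOV control counts. The share of values at 0 was 63.1% in MOV mimic, 40.0% in MOV control, 46.9% in sham mimic and 44.6% in sham control. Over the 24625 genes tested the shares were 25.6%, 20.9%, 19.6% and 18.8% in the same order, so zeros were most frequent in MOV mimic among all genes too. MOV mimic replicate 4, the library with the lowest total, had 23 snoRNA genes at 0, and the other 4 had 14 to 16. Without replicate 4 the same 6 genes were at 0 in all MOV mimic libraries and 56.7% of the values were 0.

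The 5 genes that shared the zeros with Snord91a had few counts elsewhere. Snord32a, in Rpl13a, had 4, 8, 0, 10 and 0 counts in MOV control, 1, 0, 0, 1 and 0 in sham control and 0 in all sham mimic libraries. It lies over an exon of its host in the reference annotation, so that reads of the 2 genes may be confused. Snord83b in Rpl3 had 3, 0, 3, 2 and 0 counts in MOV control, Snora78 had 1, 5, 1, 0 and 0, Snora47 in Zbed3 had 3, 4, 0, 0 and 0, and Snord23 in Gltscr2 (Nop53) had 0, 0, 0, 0 and 5. Each of these 5 was thus also at 0 in at least 1 MOV control library, and Snord91a was at 0 in none. Snora78 lies opposite Rps2, and without a stated strand setting reads of this pair cannot be told apart.

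Other genes with as many counts as Snord91a were then set beside it. Its mean in MOV control was 20.4 counts, and 6 other snoRNA genes had a mean there within 2-fold of it: Snora31, Snord104, Snord72, Snora17, Snora34 and Snora30. Their summed counts in MOV mimic ran from 22 to 133, and 0 of the 6 were at 0 in all 5 libraries, although 4 had at least 1 MOV mimic library at 0. Among all 3161 other genes tested in that range, 3 were at 0 in all 5 MOV mimic libraries. Those 3 (ENSMUSG00000097323, ENSMUSG00000097724 and ENSMUSG00000098807, named because they were only 3) each had at least 1 MOV control library at 0. In the wider range of 3-fold the same count was 24 of 5042 genes. Over all 54532 genes and all 12 ordered pairs of groups, Snord91a was the 1 gene with 0 counts in all 5 libraries of one group and at least 10 in all 5 of another. Snord91a was chosen for this loss, and its MOV control counts lie above the limit of 10. Its place here was thus known beforehand and supports nothing, and the count says only that no other gene had this pattern.

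**Figure D3:**
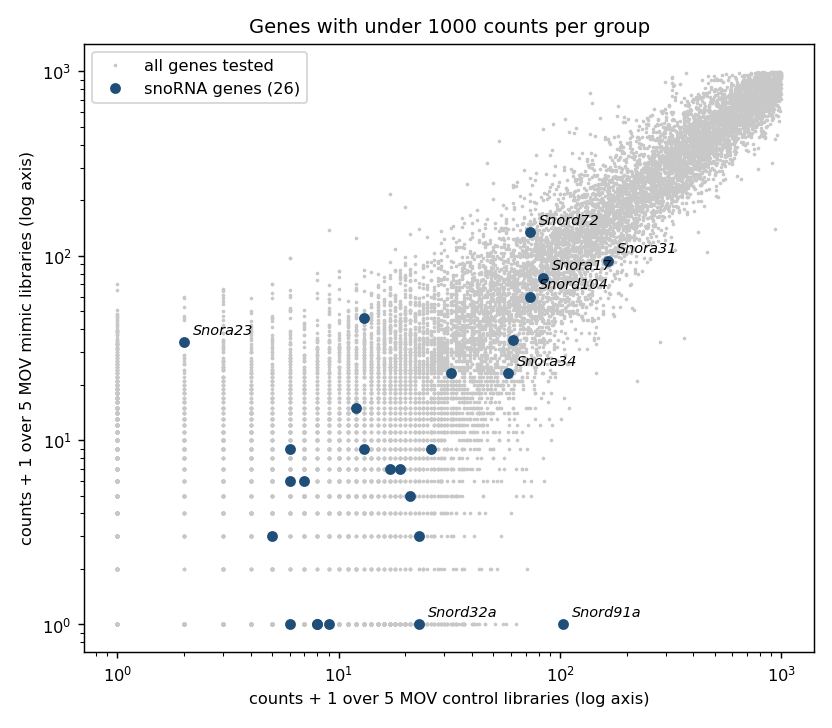
Counts summed over the 5 MOV control libraries (x axis) and over the 5 MOV mimic libraries (y axis), each plus 1 on a log axis, for genes with under 1000 in both, with the 26 snoRNA genes as large points. Snord91a lies on the floor of the plot at 102 counts in MOV control, while Snora31, Snord72, Snora17 and Snord104 lie within the cloud of all genes.

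The members closest to Snord91a in abundance are given one by one. Snord104 had 12, 17, 12, 19 and 23 counts in sham control, 9, 14, 17, 20 and 18 in sham mimic and 15, 12, 13, 17 and 15 in MOV control. In MOV mimic it had 0, 32, 10, 0 and 17 counts, so that both its lowest and its highest raw counts stood in that group. Its log2FC for MOV mimic against MOV control was -0.32 (SE 0.76, adjusted p = 0.952, edgeR). Without MOV mimic replicate 1, one of the 2 libraries at 0, it was 0.00438.

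Snord72, in the gene for ribosomal protein Rpl37 (chr15:5118421-5118480), went the other way in some libraries. It had 54, 5, 4, 59 and 11 counts in MOV mimic and 10, 16, 30, 8 and 8 in MOV control. Replicates 1 and 4 of MOV mimic were above all other libraries, and the rest of the group lay within the range of MOV control or below it. The log2FC was 1.07 (SE 0.78, adjusted p = 0.668, edgeR), while Rpl37 had a log2FC of -0.32 (SE 0.20, adjusted p = 0.60). With single libraries left out, Snord72 had a log2FC from 0.36 (without MOV mimic replicate 4) to 1.5 (without MOV control replicate 3), and Rpl37 one from -0.42 to -0.08. In sham control Snord72 had 2, 2, 14, 12 and 7 counts and in sham mimic 5, 2, 13, 2 and 3. For MOV mimic against sham mimic its log2FC was 2.48 (SE 0.83, adjusted p = 0.244, edgeR), the smallest adjusted p of a member other than Snord91a in that comparison.

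Snora31, in Tpt1, the gene for translationally controlled tumor protein (chr14:75847923-75848034), had the most counts of all members. It had 37, 27, 44, 45 and 11 counts in MOV control and 13, 18, 32, 11 and 19 in MOV mimic, ranges that overlap. The log2FC was -0.69 (SE 0.59, adjusted p = 0.751, edgeR), and -1.01 to -0.46 with single libraries left out. In sham control it had 21, 7, 38, 15 and 38 counts and in sham mimic 13, 3, 27, 31 and 3.

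Snora17 (chr2:26639190-26639321), which RefSeq places in the span of the non-coding host gene Snhg7, had 19, 31, 13, 0 and 20 counts in MOV control and 20, 34, 14, 0 and 7 in MOV mimic. Its log2FC was -0.14 (SE 0.93, adjusted p = 0.992, edgeR), and its sign turned with single libraries left out (-0.56 to 0.17). It was at 0 in replicate 4 of sham control, MOV control and MOV mimic, and had 2 counts in replicate 4 of sham mimic.

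Snora34, in 2310037I24Rik (Kansl2), a subunit of a histone acetyltransferase complex, had 0, 21, 23, 12 and 1 counts in MOV control and 7, 5, 10, 0 and 0 in MOV mimic. The log2FC was -1.24 (SE 1.07, adjusted p = 0.754, edgeR), and it ran from -1.89 (without MOV mimic replicate 3) to -0.81 (without MOV control replicate 3) with single libraries left out. Snora30, in the chromatin remodeling gene Srcap, had 20, 32, 7, 0 and 1 counts in MOV control and 7, 4, 19, 0 and 4 in MOV mimic, with 0 to 4 counts in the 10 sham libraries. Its log2FC was 3.09 (SE 1.41, adjusted p = 0.332, edgeR) for MOV control against sham control and -0.49 (SE 1.26, adjusted p = 0.956) for MOV mimic against MOV control. Both genes had libraries at 0 or 1 beside libraries of at least 20 counts within MOV control.

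Less abundant members had log2FC values of both signs, and none passed the test. Snord7 had 5, 6, 0, 1 and 0 counts in MOV control and 9, 9, 0, 18 and 9 in MOV mimic, with a log2FC of 2.16 (SE 1.10, adjusted p = 0.451, edgeR). Snora23, in Ipo7, the gene for a nuclear import receptor, had 20, 7, 0, 0 and 6 counts in MOV mimic against 0, 0, 0, 0 and 1 in MOV control, with a log2FC of 4.17 (SE 1.65, adjusted p = 0.428). Snord123 had 5, 17, 0, 0 and 0 counts in MOV control and 0, 0, 2, 0 and 0 in MOV mimic, with a log2FC of -2.71 (SE 1.58, adjusted p = 0.534).

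Snord89, Snora41, Snora69, Snora21 and Snord71, the others among the 15 genes with the most counts, had log2FC values of -0.33, -1.33, 0.00, 1.06 and -1.67 for MOV mimic against MOV control, with adjusted p from 0.807 to 1.00 in edgeR. Snord17, with as many counts as Snord71 (34), had -1.04 (adjusted p = 0.916). The remaining Snora20, Snord15a, Snord49a, Snord65 and Snora62 had 26 counts or fewer, except Snord49a with 28, and log2FC values between -2.22 and 0.64.

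The tests over all genes were then read for the 26 members. For MOV mimic against MOV control, the question of what the mimic does in overloaded muscle, 0 of the 25 members other than Snord91a were called. Snord91a, chosen for this difference, was the 1 gene called of 24625, so that the background of 0.00406% is this gene itself and nothing is read from it. Here and in the other comparisons the fit did not pair the legs of a mouse. For MOV mimic against MOV control a replicate block gave more calls over all genes, as listed at the end. The groups did not overlap in CPM for 0 of the other 25 members, against 0.585% of all genes. Of the log2FC values of these 25 members 18 were below 0 (72.0%) with a median of -0.69, beside 50.9% and -0.01 over all genes tested. Snord32a, Snora20, Snord23, Snora47, Snord83b, Snord15a and Snora62 reached the limit on summed counts only with their MOV control counts. All of these had a log2FC below 0, and no member reached the limit only with MOV mimic counts. The choice of members thus itself favors values below 0, and how far was not tested. The fitted size of the members at 0 throughout MOV mimic depends on the prior count, and of the 20 members with counts there 13 were below 0, with a median of -0.41. Keeping members by their counts in MOV mimic selects on a group compared, and Snora20, Snord15a and Snora62 remained among the 20. With Snord91a the median of the 26 was -0.80. Of the 26, Snord91a and 4 others had an unadjusted p under 0.05, as did 2838 of all 24625 genes, and the smallest adjusted p of the others was 0.428. These 4 were Snora23 (log2FC 4.17) and, among the members at 0 throughout MOV mimic, Snord32a (-5.07), Snord83b (-3.69) and Snora78 (-3.32).

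For sham mimic against sham control 0 of 26 members were called, with a background of 0.0%, and 480 of all genes had an unadjusted p under 0.05. DESeq2 also called 0 genes there. No member had groups that did not overlap, against 0.345% of all genes. The median log2FC of the members was -0.27 beside 0.00 over all genes, and 1 member had an unadjusted p under 0.05.

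For MOV control against sham control, the effect of overload alone, 0 members were called, with a background of 0.231% (57 genes). No member had groups that did not overlap, against 3.25% of all genes. Snora20 and Snora30 had an unadjusted p under 0.05, as did 3431 of all genes, and the smallest adjusted p was 0.261 (Snora20, edgeR). Snora20, in Tcp1, had 16, 1, 0, 0 and 3 counts in MOV control and 0 in all sham control libraries. The median log2FC of the members was 0.47, beside 0.05 over all genes. The members that reached the limit on summed counts only with MOV control counts enter this median too, so the choice of members bears on it.

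For MOV mimic against sham mimic 0 of the 25 other members were called, with a background of 0.0162% (4 genes, of which Snord91a, with the same MOV mimic libraries, was 1). The groups did not overlap for 0 of these 25, against 1.99% of all genes. An unadjusted p under 0.05 was given to 6 of the 26 members and to 3901 of all genes. The median log2FC of the members was 0.18 and that of all genes 0.01. For the interaction of surgery and virus 0 members were called, with a background of 0.0%, although 1494 of all genes and 3 members had an unadjusted p under 0.05 and DESeq2 called 1 gene, Snord91a. The comparisons share groups, so that they are not independent of each other. The calls of Snord91a on these libraries carry no support, and they also depended on the fit. Both were lost when only the 10 libraries compared were fitted. The call against MOV control was lost without MOV mimic replicate 1 or 2, and the call against sham mimic without any 1 of 11 libraries, among them MOV mimic replicates 1 to 4. With a replicate block the call against sham mimic was lost in edgeR, and Snord91a was called for the interaction in either tool.

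Host genes were set beside all members. By the reference annotation 22 of the 26 genes lay on the same strand within a longer gene, and 20 different host genes were tested. For MOV mimic against MOV control 0 of the 20 were called, their log2FC ran from -0.44 (Zbed3) to 0.31 (2410006H16Rik) with a median of -0.03, and the smallest adjusted p was 0.442 (edgeR). None was called in the other 4 comparisons either. The log2FC of the members spread more widely, and so did their standard errors, with a median of 1.54 (0.592 to 1.76) over the 26 members and of 0.168 (0.125 to 0.439) over the 20 hosts, which mostly had far more counts. The 26 include the members at 0 throughout MOV mimic, whose log2FC and standard error depend on the prior count. Whether members and hosts differed beyond these errors was not tested. The 1 pair of members in the same host was Snord49a and Snord65 in 2410006H16Rik, which had 8, 0, 6, 0, 0 and 5, 0, 0, 0, 0 counts in MOV mimic, too few to say whether they went together.

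**Figure D4:**
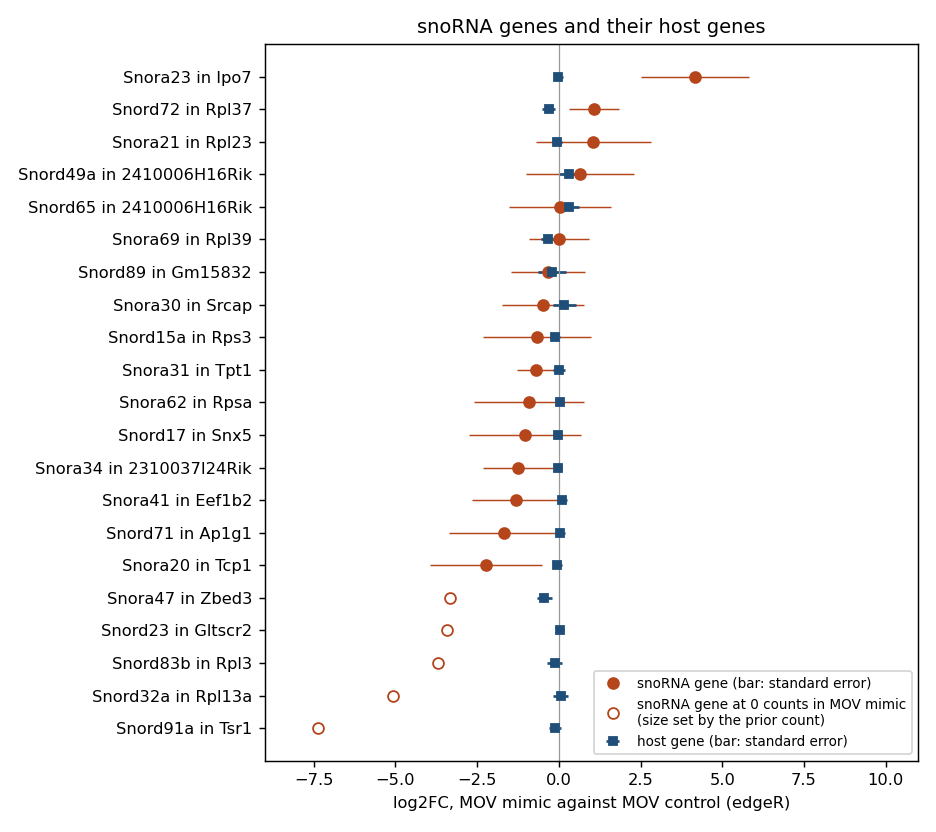
Fitted log2FC for MOV mimic against MOV control of the snoRNA genes with a tested host (circles) and of the host genes (squares), each with its standard error as a bar, ordered by the snoRNA gene. The hosts lie between -0.44 and 0.31, and open circles mark 5 snoRNA genes with 0 counts in MOV mimic, whose fitted size depends on the prior count and which have no bar.

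The level summed over the members was compared without a test. The 14 Snord genes together had 3.51 ± 1.27 CPM in MOV mimic, 4.42 ± 0.453 in MOV control, 2.73 ± 0.856 in sham mimic and 3.41 ± 0.617 in sham control (SD, n = 5). Without Snord91a the 13 other Snord genes had 3.23 ± 0.595 CPM in MOV control, below the mean of MOV mimic and within its range. Snord72 alone had a mean of 1.62 CPM in MOV mimic, with 2.73 and 4.19 in replicates 1 and 4, and 0.763 in MOV control. The order of the means depended on this gene. The 12 Snora genes had 3.20 ± 1.48, 4.56 ± 1.09, 2.71 ± 1.35 and 3.33 ± 1.39 CPM from MOV mimic to sham control in the order used for the Snord genes. For all 26 genes the level was 6.71 ± 0.585 CPM in MOV mimic and 8.98 ± 1.01 CPM in MOV control, and these libraries did not overlap. Without Snord91a the level in MOV control was 7.79 ± 1.54 CPM, which overlapped that in MOV mimic.

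**Figure D5:**
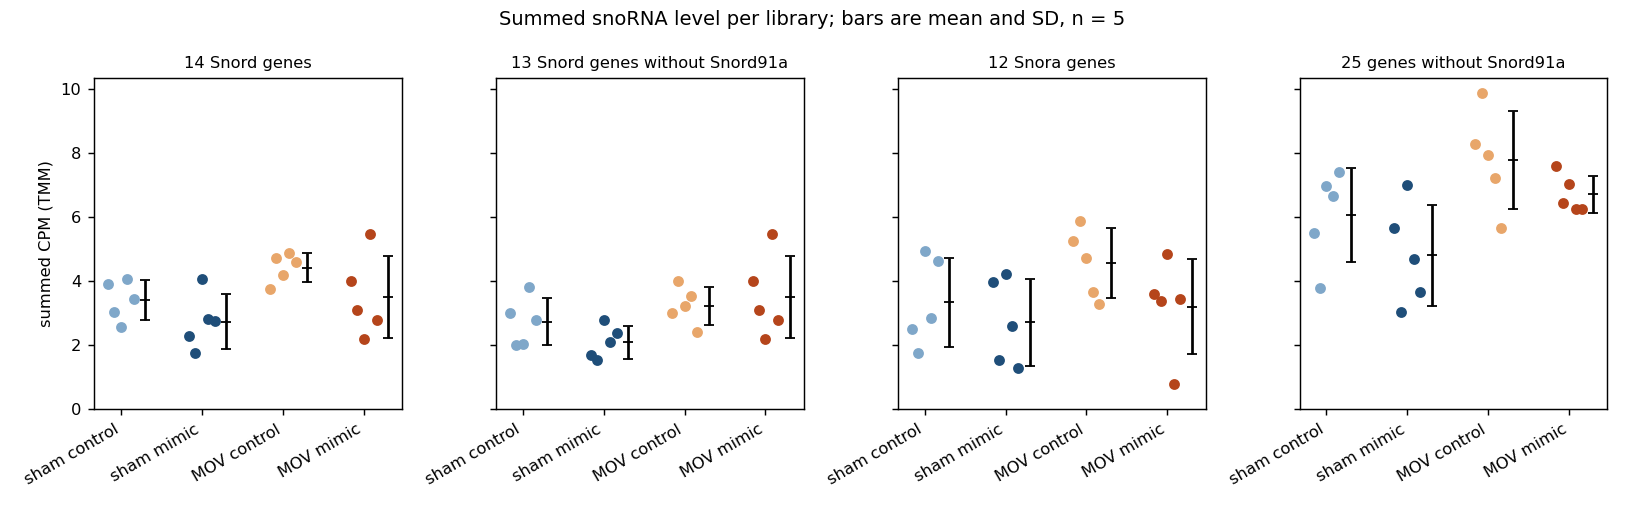
TMM CPM summed over the 14 Snord genes, the 13 of them other than Snord91a, the 12 Snora genes and the 25 genes other than Snord91a, with a point for each of 5 libraries per group and a bar for the mean and SD. Without Snord91a, the MOV control libraries lie between 5.67 and 9.88 CPM and the MOV mimic libraries between 6.24 and 7.58 CPM.

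The proteins that build and process snoRNA particles were read from a list of 24 genes, all of which were tested. The list holds the box C/D core (such as Fbl, the methyltransferase fibrillarin), the box H/ACA core (such as Dkc1, the pseudouridine synthase dyskerin), assembly factors and enzymes of processing and export. In each of the 5 comparisons 0 of 24 were called, beside 0.0% to 0.231% of all genes tested. For MOV mimic against MOV control their log2FC ran from -0.47 to 0.46, with a median of 0.03. Of the 24, 2 had an unadjusted p under 0.05, as did 2838 of all 24625 genes, and the smallest adjusted p was 0.428 (edgeR).

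These 2 were Ruvbl1, a helicase of the complex that assembles box C/D particles, with a log2FC of -0.47 (SE 0.17, adjusted p = 0.428), and Exosc10, a nuclease of the nuclear exosome that trims snoRNA ends, with 0.32 (SE 0.14, adjusted p = 0.428, edgeR). Fbl had 20.4 ± 1.67 CPM in MOV mimic, 23.8 ± 3.58 in MOV control, 17.9 ± 2.09 in sham mimic and 18.3 ± 2.62 in sham control (SD, n = 5). Its log2FC was -0.22 (SE 0.14, adjusted p = 0.598, edgeR) for MOV mimic against MOV control and 0.38 (SE 0.14, adjusted p = 0.261) for MOV control against sham control. Dkc1 had a log2FC of 0.02 (SE 0.14, adjusted p = 0.993, edgeR) for MOV mimic against MOV control. Dbr1, the enzyme that opens excised intron lariats, had 0.46 (SE 0.24, adjusted p = 0.462).

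Of 6 non-coding genes listed by name as possible snoRNA hosts, 5 were tested (Gas5, Meg3, Snhg3, Snhg11 and Snhg12) and 0 were called in any of the 5 comparisons. Snhg3 had no more than 14 counts in a library and at most 0.224 CPM in the mean of a group, too little to read. Gas5, which carries several box C/D snoRNAs, had a log2FC of 0.11 (SE 0.16, adjusted p = 0.890, edgeR) for MOV mimic against MOV control.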

How the data were processed

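Plantaris muscles were sequenced in 20 libraries, 5 in each of 4 groups. The values the authors deposited are raw counts for each Ensembl gene, with control and mimic libraries in separate tables. The submitters' processing notes name FastQC 0.11.9, cutadapt 4.4, Trim Galore 0.6.10, HISAT2 2.0.5, featureCounts 1.5.0-p3 and DESeq2 1.34.0, and the genome was GRCm38. The annotation release, strand setting and treatment of reads with several alignments are not given in the sources used here. Libraries were made from total RNA with an Ultra II RNA kit.

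Groups were taken from the labels. Whether equal replicate numbers mark the legs of 1 mouse is not stated, so p-values measure the spread between these libraries. Libraries of a group differed by more than sampling noise (chi-square per gene 9.52 to 129 over 40 pairs). Genes with at least 10 counts over the 20 libraries were fitted together with edgeR 4.0.16 (TMM, quasi-likelihood test, two-sided, Benjamini-Hochberg, threshold 0.05), with contrasts for 4 comparisons of groups and the interaction. SE was the log2FC divided by the root of F. The alternatives were DESeq2 1.42.0, its size factors, no filter, filterByExpr, only the 10 libraries compared, a replicate block in edgeR and DESeq2, and each library left out. Within a surgery the block joined control and mimic libraries of equal number. Between sham and MOV it joined libraries of equal number from different mice, so it has no basis in the design there. Floors of 3 counts cover counting error only, since reads without molecular identifiers are not independent molecules.

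Symbols were found for 32640 genes. Hosts and lengths came from a GENCODE annotation of an older build, of which no coordinate is given, and positions and start windows from RefSeq (GRCm38.p6), in which all 26 members were matched. Members and lists were chosen with earlier results of these data known. Genes were named by rule, namely Snord91a and members of its host, the 15 members with most counts, members called or not overlapping, up to 10 members nearest to Snord91a in count, hosts of these, genes beside the limit of 10 counts and called pathway genes. Genes named beyond this rule were chosen after their values were seen. R 4.3.3, Python 3.11.15, pandas 2.3.3, numpy 2.4.6 and matplotlib 3.10.9 were used.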

Additional observations from a re-analysis of the deposited data

Results flagged for a closer look

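Of 47 groups of 5 libraries tested for a library far from the others with Dixon's ratio, chance would mark about 1 in 20. One was marked. Snord72 in MOV control had 1.56 CPM in replicate 3, and the ratio was 0.812 against a critical value of 0.71. The same gene had both its highest libraries in MOV mimic, replicates 1 and 4.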

How the results depend on the processing

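Snord91a, whose calls on the MOV mimic libraries follow from its choice and support nothing, was the 1 snoRNA gene called for MOV mimic against MOV control with DESeq2, DESeq2 size factors, no filter, filterByExpr and the replicate block in either tool. The count was 0 when only 10 libraries were fitted, and leaving out single libraries gave 0 to 1, with 0 without MOV mimic replicate 1 or 2. For MOV mimic against sham mimic it was 0 with 10 libraries and with the replicate block in edgeR, 4 with the block in DESeq2 (Snord15a, Snord23, Snord72 and Snord91a) and 0 to 1 over single libraries left out, with 0 without sham control 2, sham mimic 1, 3 or 4, MOV control 1, 2 or 4, or MOV mimic 1, 2, 3 or 4. The interaction gave 1 (Snord91a) with DESeq2 and with the block in either tool. MOV control against sham control gave 1 snoRNA gene (Snora20) and 1 pathway gene (Fbl) with the block in DESeq2, where Tsr1 also passed for MOV mimic against sham mimic (log2FC -0.59). Between sham and MOV the block joins different mice, so these calls do not come from a paired comparison. The cause was not tested. filterByExpr kept 6 of the 26 members. The lower bound for Snord91a was 34.4-fold with a floor over the group and 5.31 to 7.35-fold over libraries left out. The summed level in MOV mimic minus MOV control was -2.27 CPM, -1.08 without Snord91a and -2.56 to -1.87 over libraries left out. Over libraries left out the sign turned for Snora17 (-0.56 to 0.17), Snord104 (-0.92 to 0.00438) and Tsr1 (-0.20 to 0.0123) in MOV mimic against MOV control, and for Snord91a (-0.47 to 0.14) and Tsr1 (-0.11 to 0.14) in sham mimic against sham control. RefSeq spans, read without regard to strand, gave 25 members within a longer gene, in place of 22 with a host on the same strand. With 1 MOV mimic library left out, 6 to 9 members were at 0 throughout the others. These 2 alternatives, the RefSeq lengths, the counts per length without MOV mimic and the levels and log2FC medians without Snord91a or the members at 0 were chosen after seeing the data.

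Over all genes, MOV mimic against MOV control gave 1 call, 5 with DESeq2, 383 with the block, 130 with the block in DESeq2, 0 with 10 libraries and 0 to 2 over libraries left out. MOV control against sham control gave 57, and 239 with 10 libraries, 605 with DESeq2, 167 with no filter, 36 with filterByExpr, 154 with the block, 1608 with the block in DESeq2 and 0 to 250 over libraries left out, with 250 without sham control replicate 3. MOV mimic against sham mimic gave 4, and 0 with 10 libraries, 234 with DESeq2, 10 with the block, 1442 with the block in DESeq2 and 0 to 250 over libraries left out, with 250 without MOV mimic replicate 5. In these comparisons of MOV with sham the block joins different mice. The interaction gave 0, and 1 with DESeq2, 81 with the block and 4 with the block in DESeq2, and sham mimic against sham control gave 0, and 3 with the block. Deviations from the group means correlated at 0.0763 to 0.402 between MOV libraries of equal number and at 0.00334 to 0.778 between sham libraries, over 13651 genes, with means of 0.240 and 0.304 against -0.0571 and -0.0643 between libraries of unequal number. In each surgery 4 of 5 equal pairs were above 0.1, but not all, so the pairing, which the labels do not state, was not taken as established. It was not shown to be absent either, although control and mimic virus went into the legs of the same mice.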

Other observations

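Over all 54532 genes, 8 had 0 counts in all 5 MOV mimic libraries and at least 1 count in all 5 MOV control libraries, and 0 genes had the opposite pattern. Between MOV mimic and sham mimic 29 genes were at 0 in all MOV mimic libraries with counts in all sham mimic libraries, and 0 the other way round. MOV mimic also had the fewest counts over the genes tested, 78913635 against 85948775 in MOV control and 94948370 in sham mimic. Its share of values at 0 was the highest, and the part of depth in these numbers was not tested. Between MOV control and sham control 16 genes were at 0 in all MOV control libraries with counts in all sham control libraries, and 2 the other way round. With at least 5 counts in all libraries of the other group, Snord91a was the 1 gene left in any pair of groups. As Snord91a was chosen for this pattern, its place here supports nothing.

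Of 9 other small RNA genes (symbols beginning with Scarna, Rnu, Rny, Rmrp, Rpph1 or Rn7s), 4 had at least 10 counts and together all 9 had 138. One of these 4, Scarna6, was at 0 in all 5 MOV mimic libraries, but it had counts in no more than 2 of the 20 libraries, both of them MOV control.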
